A study of Homo sapiens with 2 samples.

Results

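The solute carrier families that move amino acids across membranes were followed in R-HL60 and in its parent HL60. Members were all names beginning with SLC1A, SLC3A, SLC6A, SLC7A, SLC36A, SLC38A or SLC43A and a digit, which gave 64 of the 43270 genes and transcripts on the array, read by 98 of 58201 probes. Of these, 59 are transporter genes or transporter subunits and 5 are a pseudogene, an antisense transcript or a neighbouring gene that only shares the name.

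HL60 is a human promyelocytic line from acute myeloid leukaemia, grown here without drug. R-HL60 was derived from it by prolonged culture in rising concentrations of cytarabine, a deoxycytidine analogue that halts DNA synthesis. The labels give the same culture medium for both lines. The sources used here do not say whether R-HL60 was a single clone or whether drug was present at harvest. Each line was represented by 1 one-colour Agilent array, so no difference below has a test, and line and array cannot be told apart.

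Amino acid carriers fall into a few mechanistic classes. SLC3A proteins are heavy chains that carry a light chain of the SLC7A family to the plasma membrane, where the pair exchanges one amino acid for another. SLC1A, SLC6A and SLC38A carriers load amino acids by coupling them to sodium, SLC36A carriers couple them to protons, and SLC43A carriers let their substrates equilibrate. Leukaemia cells depend on such uptake for protein synthesis, for glutathione and for signalling to mTORC1, and a shortage of amino acids raises many carrier genes through the transcription factor ATF4.

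A gene was called above the floor on an array when its signal exceeded the median of all probes, 32.8 on the R-HL60 and 30.7 on the HL60 array. Differences are on the log2 scale, R-HL60 minus HL60, after subtraction of each array's 75th percentile (294 on the R-HL60 and 292 on the HL60 array). Genes with several probes were read by the probe with the highest mean. Neither line was replicated, and repeat readings came only from genes with several probes on the same arrays. The SD between probes of 1 gene was 0.19 over 4723 genes. Within 5 brightness bins, where only genes with several probes in the same bin count (268 to 477 genes a bin), it ran from 0.32 in the dimmest to 0.08 in the brightest. It leaves out the spread between cultures and arrays. All 8 myeloid markers examined were above the floor on both arrays, with summed signals of 670300 on the R-HL60 and 759662 on the HL60 array, carried by MPO and CTSG. Of these 8, ELANE had 153 in R-HL60 and 700 in HL60, PRTN3 had 18985 in R-HL60 and 32955 in HL60, and only SPI1 was brighter in R-HL60. The 3 epithelial and 3 fibroblast markers were below the floor on both arrays, whereas 3 of 4 lymphoid and 3 of 3 erythroid markers were above it, with summed signals of 762 and 1138 on the R-HL60 array and 691 and 1080 on the HL60 array.

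Transporter signals were close on the 2 arrays. Of the 64 members 38 were above the floor on both arrays, 2 on the HL60 array only and 24 on neither. None of the 40 members detected above the floor on either array was 2-fold higher or 2-fold lower on the R-HL60 array, where the share over all 23531 such genes was 0.786% higher and 0.297% lower. None reached 1.5-fold either, against 3.53% of all genes in the higher and 1.38% in the lower direction. A count of 0 among 40 lies near those background shares and is no result about transporters in particular. In these bulk RNA samples, fewer cells with a transcript and less transcript per cell cannot be told apart.

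The 38 members above the floor on both arrays had a median difference of 0.00, beside -0.03 over all 21838 genes measured on both. Differences ran from -0.36 for SLC6A4 to 0.58 for SLC7A8, with an SD over members of 0.22 (0.29 over all genes). Within 1.2-fold either way were 32 members, or 84.2%, against 77.3% of all genes. This share depends on brightness. In the brightest bin it was 91.7% of 12 members, against 91.0% of all genes there. In the bin below the brightest it was 100% of 9 members, against 86.5%. In the bin next to the dimmest it was 63.6% of 11 members, against 67.8%. A difference above 0 was found for 20 of 38 members, against 42.8% of all genes. The sign depended on the scaling or on the probes used for 18 members, which had the other sign in at least 1 of 8 alternatives. Among these were mostly small differences, but also SLC7A11-AS1 at 0.52.

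The widest differences among the transporter genes were those of the light chains SLC7A8 and SLC7A7. Over the 5 measured SLC7A light chains the median was 0.35, beside -0.03 over all genes. Their partner SLC3A2, the CD98 heavy chain that most SLC7A light chains need to reach the surface, had a signal of 4324 in R-HL60 and 3897 in HL60, a difference of 0.14. SLC7A11, the light chain of the cystine and glutamate exchanger that supplies cysteine for glutathione, had 5853 in R-HL60 and 4573 in HL60. This is 1.27-fold higher in R-HL60 (log2 difference 0.35, probe-to-probe SD 0.08 in its brightness bin), and 3.91% of the 4368 genes in that bin differed at least as much in either direction. SLC7A8, the light chain of a broad exchanger of small and large neutral amino acids, had 143 in R-HL60 and 94.6 in HL60, a log2 difference of 0.58 that is just short of the 1.5-fold limit. SLC7A7, the light chain that exports cationic amino acids in return for neutral ones with sodium, had 201 in R-HL60 and 135 in HL60, or 1.47-fold higher.

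SLC7A8 and SLC7A7 lie in a dim bin with a probe-to-probe SD of 0.25, in which 6.94% and 7.58% of genes differed at least as much. When 50 units were added to every signal, a setting that damps differences between dim signals, their differences were 0.41 and 0.43. The files hold no detection flags, so background hybridisation cannot be told apart from transcript in signals this dim. SLC7A6, the relative of SLC7A7 with the same kind of exchange, had 185 in R-HL60 and 163 in HL60, a difference of 0.18 that is smaller than the SD of its bin. SLC7A5, the light chain that takes up leucine and other large neutral amino acids, had 9762 in R-HL60 and 10387 in HL60, a difference of -0.10. Thus 4 of the 5 measured light chains had differences above 0, against 42.8% of all genes, and SLC7A5 lay below 0. As few as 5 genes do not set light chains apart from other genes. These 5 signs were the same in all 8 alternatives, which reuse the same arrays and so are no repeat of the result. Each of the 5 genes had 1 probe above the floor, so agreement between probes could not be examined.

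SLC3A1, the heavy chain of the renal cystine transporter, was above the floor on the HL60 array only, at 25.3 in R-HL60 and 31.5 in HL60, and allowed no fold. Its partner light chains SLC7A9 and SLC7A13, and SLC7A10, a light chain for small neutral amino acids, were below the floor on both arrays. Among the cationic amino acid transporters, which work without a heavy chain, SLC7A1 had 3711 in R-HL60 and 3918 in HL60 (difference -0.09), while SLC7A2, SLC7A3, SLC7A4 and SLC7A14 were below the floor on both.

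**Figure D1:**
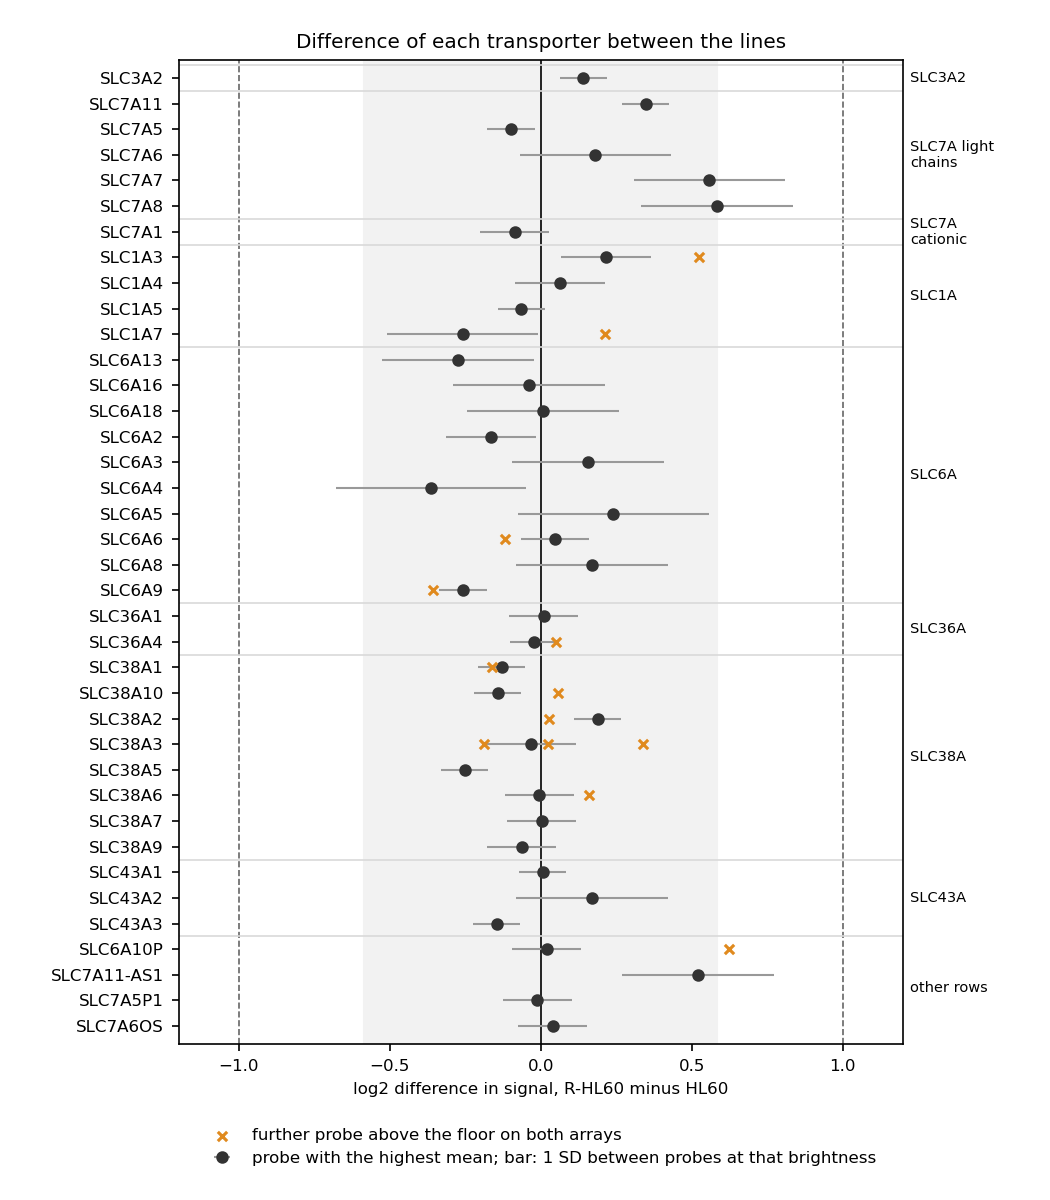
Log2 difference in signal, R-HL60 minus HL60, of the same 38 members, with bars of 1 SD between probes of a gene at that brightness and crosses for further probes above the floor on both arrays. The grey band marks 1.5-fold and the dashed lines 2-fold; every filled point lies inside the band, with SLC7A8 at 0.58 at its edge, and the only cross beyond it is a probe of the pseudogene SLC6A10P at 0.62.

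SLC1A genes encode sodium-coupled carriers for acidic amino acids and for small neutral ones. SLC1A5, a main route of glutamine entry, had 4443 in R-HL60 and 4618 in HL60, and SLC1A4, its relative for alanine, serine and cysteine, had 635 in R-HL60 and 603 in HL60. These are differences of -0.06 and 0.06, both below the probe-to-probe SD of their bins. SLC1A3, a glutamate and aspartate carrier, had 492 in R-HL60 and 421 in HL60 (difference 0.22). A dimmer probe for SLC1A3 gave 49.3 in R-HL60 and 34.1 in HL60, a difference of 0.53 in the same direction. SLC1A7, a further glutamate carrier, had 92.9 in R-HL60 and 110 in HL60, a difference of -0.26, but its other probe gave 0.21. The remaining glutamate carriers SLC1A1, SLC1A2 and SLC1A6 were below the floor on both arrays.

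The SLC38A genes include carriers of the cell surface and of the lysosome. SLC38A2, a glutamine and alanine carrier known to be induced when amino acids are scarce, had 14708 in R-HL60 and 12834 in HL60 (difference 0.19), and 0.03 on its other probe. SLC38A1, the other main carrier of this type, had 19790 in R-HL60 and 21523 in HL60, a difference of -0.13, and its other probe gave -0.16. SLC38A1 and SLC38A2 thus had small differences of opposite sign, also in all 8 alternatives. SLC38A5, which exchanges glutamine and serine with coupled sodium and protons, had 5405 in R-HL60 and 6397 in HL60. This was the lowest SLC38A value, at -0.25, and 10.6% of genes in its bin differed at least as much.

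The lysosomal members differed little. SLC38A9, which senses arginine in the lysosome and signals to mTORC1, had 2723 in R-HL60 and 2828 in HL60 (difference -0.06). SLC38A7, which exports glutamine and asparagine from lysosomes, had 1593 in R-HL60 and 1580 in HL60 (difference 0.00). SLC36A1, a proton-coupled carrier that lets amino acids out of the lysosome, had 1482 in R-HL60 and 1463 in HL60 (difference 0.01). SLC36A4, its relative with high affinity for proline and tryptophan, had 4626 in R-HL60 and 4669 in HL60 (difference -0.02), and 0.05 on its other probe. SLC36A2 and SLC36A3 were below the floor on both arrays.

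Among the other SLC38A genes, SLC38A10 had 14733 in R-HL60 and 16167 in HL60 (difference -0.14), with 0.06 on a further probe and 0.07 in the mean of all its probes. SLC38A6 differed by -0.01 with 0.16 on a further probe, and SLC38A3, a glutamine carrier coupled to protons in liver and brain, by -0.03 with further probes from -0.19 to 0.34. SLC38A4, SLC38A8 and SLC38A11 were below the floor on both arrays. Over the 8 measured SLC38A genes the median was -0.05, and all 8 lay within 1.2-fold.

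In the SLC43A family, SLC43A1, a facilitated carrier of branched-chain amino acids, had 6633 in R-HL60 and 6564 in HL60 (difference 0.01). Its relative SLC43A2 had 93.9 in R-HL60 and 83.0 in HL60 (difference 0.17, SD of its bin 0.25). SLC43A3, which carries purine nucleobases and not amino acids, had 3742 in R-HL60 and 4115 in HL60 (difference -0.15). All 3 lay within 1.2-fold.

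The SLC6A family carries neurotransmitters, creatine and osmolytes as well as amino acids. SLC6A9, the glycine transporter, had 3877 in R-HL60 and 4609 in HL60, a difference of -0.26. Its dimmer probe gave -0.36, in the same direction, and 9.73% of genes in the bin of the brighter probe differed at least as much. SLC6A6, the taurine transporter, had 1959 in R-HL60 and 1885 in HL60 (difference 0.05), with -0.12 on its other probe. SLC6A8, the creatine transporter, had 92.5 in R-HL60 and 81.7 in HL60, a difference of 0.17 that went to -0.00 in the mean of its probes.

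The other SLC6A genes above the floor are best known from neurons or epithelia, and most of their signals were dim. The noradrenaline transporter gene SLC6A2 had 298 in R-HL60 and 332 in HL60 (difference -0.16), near the 75th percentile of each array. The serotonin transporter gene SLC6A4 had 48.8 in R-HL60 and 62.4 in HL60, and its difference of -0.36 lies in the dimmest bin, where the probe-to-probe SD was 0.32 and 23.4% of genes differed at least as much. The dopamine transporter gene SLC6A3 differed by 0.16 (-0.10 in the mean of its probes), the GABA transporter gene SLC6A13 by -0.27, the glycine transporter gene SLC6A5 by 0.24, SLC6A16 by -0.04 and SLC6A18 by 0.01. The limit given for the dim signals of SLC7A8 and SLC7A7 holds for these genes too. SLC6A19, a neutral amino acid carrier of gut and kidney, was above the floor on the HL60 array only, at 30.4 in R-HL60 and 31.5 in HL60, and allowed no fold. SLC6A7, SLC6A11, SLC6A12, SLC6A14, SLC6A15, SLC6A17 and SLC6A20 were below the floor on both arrays.

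Members below the floor on both arrays reached at most 32.4 in R-HL60 and 28.0 in HL60. The highest R-HL60 value was that of SLC38A8, at 32.4 in R-HL60 and 14.5 in HL60, followed by SLC6A17 at 28.6 in R-HL60 and 11.5 in HL60. With the floor lowered to the 40th percentile these became at least 1.95-fold higher for SLC38A8 and at least 1.73-fold for SLC6A17 in R-HL60. They were the only members past 1.5-fold under any of the 8 alternatives.

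The 5 names that are not transporters are described apart here, but the counts and medians over members include them. Without them, 34 transporter genes were above the floor on both arrays, with a median difference of -0.00. Of these 34, 17 lay above 0 and 85.3% lay within 1.2-fold. SLC7A11-AS1, a transcript antisense to SLC7A11, had 160 in R-HL60 and 111 in HL60 on the single probe of 4 that was above the floor, a difference of 0.52 beside 0.35 for SLC7A11 itself. When its 3 probes below the floor were averaged in, the difference was -0.28. SLC6A10P, a pseudogene copy of SLC6A8, had 914 in R-HL60 and 896 in HL60 (difference 0.02), and 0.62 on a dimmer probe. SLC7A5P1, a pseudogene copy of SLC7A5, had 1038 in R-HL60 and 1040 in HL60 (difference -0.01). Pseudogene probes may bind the parent transcript, so these values are uncertain. SLC7A6OS, a coding gene beside SLC7A6, had 2323 in R-HL60 and 2247 in HL60 (difference 0.04).

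In all, 11 members had several probes above the floor on both arrays. Their probes pointed the same way in 5, namely SLC1A3, SLC38A1, SLC38A2, SLC6A9 and SLC6A10P, and different ways in 6. The 6 were SLC1A7, SLC36A4, SLC38A10, SLC38A3, SLC38A6 and SLC6A6, whose brightest probes all lay within 0.26 of 0.

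**Figure D2:**
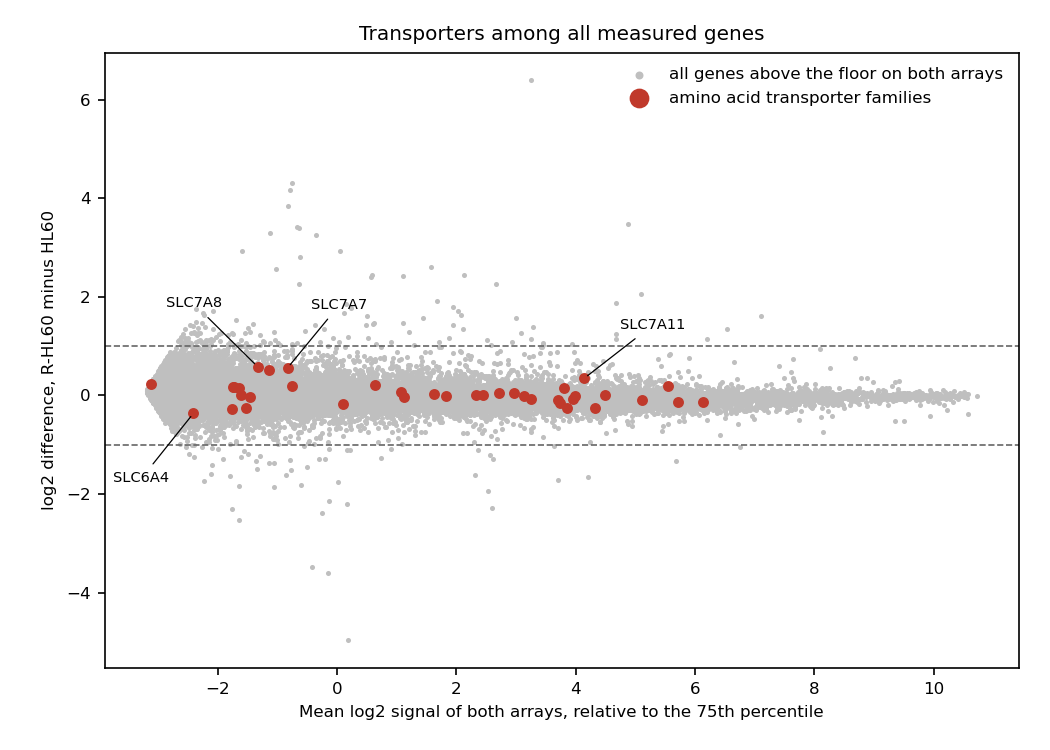
Log2 difference, R-HL60 minus HL60, against the mean log2 signal of both arrays relative to the 75th percentile, with all 21838 genes measured on both arrays in grey and the 38 members in red; dashed lines mark 2-fold. The members lie inside the grey cloud along the whole range of brightness. SLC7A11 at 0.35 lies high where the cloud is narrow, but 3.91% of the 4368 genes in its brightness bin differed at least as much in either direction.

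The amino acid response was examined next, since several carriers are known targets of ATF4. ATF4 itself had 354354 in R-HL60 and 348850 in HL60 (difference 0.01), a transcript level that says nothing of its translation, through which ATF4 is mainly controlled. Of 21 genes of the list that passed the floor on either array, 4 were at least 1.5-fold higher in R-HL60 (3.53% over all genes), 2 of them at least 2-fold (0.786% over all genes), and 0 were 1.5-fold lower. DDIT3, a stress transcription factor, had 1618 in R-HL60 and 716 in HL60 (2.25-fold). ATF3, a further stress factor, had 4599 in R-HL60 and 2251 in HL60 (2.03-fold on its brightest probe), but its difference was 0.56 in the mean of its probes.

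CHAC1, which degrades glutathione, had 18829 in R-HL60 and 10407 in HL60 (1.80-fold), and DDIT4, an inhibitor of mTORC1 signalling, had 37247 in R-HL60 and 23099 in HL60 (1.60-fold). The genes of amino acid and one-carbon synthesis in the list, a grouping made after their values were seen, ran from -0.43 for CBS, which makes cystathionine from homocysteine, to 0.09 for MTHFD2, a mitochondrial folate enzyme. ASNS, asparagine synthetase, had 68460 in R-HL60 and 79291 in HL60 (difference -0.22). The serine synthesis genes PSAT1 and PHGDH differed by -0.01 and -0.16 and PSPH, of the same pathway, by 0.08, and TRIB3, a feedback inhibitor of ATF4, by 0.00. The median of the 20 members measured on both arrays was 0.08, beside -0.03 over all genes, and it was -0.01 when each array was scaled to its median.

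Promoter sequences of carriers that hold the amino acid response core are shown with those of CHAC1 and ASNS, to set the same short element beside genes with different values. The windows are from RefSeq, build GRCh38.p14, run from 250 bases before to 50 bases after an annotated start and hold 300 bases each. Of the 64 members 45 matched a window, among them 30 of the 40 above the floor. SLC7A11 matched none, so its promoter was not searched. The core searched was TGATGNAA on both strands; capitals mark it, and positions count from 1 at the start site.
SLC3A2 (chr11:62881449-62881748, plus strand): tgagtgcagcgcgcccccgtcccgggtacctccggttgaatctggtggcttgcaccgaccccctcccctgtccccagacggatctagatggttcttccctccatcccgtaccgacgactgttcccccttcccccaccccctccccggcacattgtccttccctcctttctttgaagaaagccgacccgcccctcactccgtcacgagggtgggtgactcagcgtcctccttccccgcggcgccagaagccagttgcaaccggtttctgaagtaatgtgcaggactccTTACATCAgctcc
SLC1A4 (chr2:64989149-64989448, plus strand): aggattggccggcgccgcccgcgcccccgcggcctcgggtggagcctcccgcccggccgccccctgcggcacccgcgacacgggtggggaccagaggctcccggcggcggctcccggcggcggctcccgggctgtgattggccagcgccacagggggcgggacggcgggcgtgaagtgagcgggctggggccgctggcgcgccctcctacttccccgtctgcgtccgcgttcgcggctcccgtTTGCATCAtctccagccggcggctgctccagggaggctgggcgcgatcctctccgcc
SLC1A5 (chr19:46784765-46785064, minus strand): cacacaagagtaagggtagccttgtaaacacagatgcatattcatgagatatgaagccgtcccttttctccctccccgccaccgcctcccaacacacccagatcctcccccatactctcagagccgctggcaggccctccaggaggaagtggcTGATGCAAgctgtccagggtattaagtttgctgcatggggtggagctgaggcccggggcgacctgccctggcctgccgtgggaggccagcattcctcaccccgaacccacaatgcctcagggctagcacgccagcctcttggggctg
SLC7A1 (chr13:29595639-29595938, minus strand): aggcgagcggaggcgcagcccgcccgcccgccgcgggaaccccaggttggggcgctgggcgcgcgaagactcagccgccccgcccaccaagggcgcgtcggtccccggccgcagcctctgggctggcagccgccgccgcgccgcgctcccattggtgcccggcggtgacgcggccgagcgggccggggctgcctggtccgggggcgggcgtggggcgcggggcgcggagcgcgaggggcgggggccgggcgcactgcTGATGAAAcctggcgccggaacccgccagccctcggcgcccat
CHAC1 (chr15:40953221-40953520, plus strand): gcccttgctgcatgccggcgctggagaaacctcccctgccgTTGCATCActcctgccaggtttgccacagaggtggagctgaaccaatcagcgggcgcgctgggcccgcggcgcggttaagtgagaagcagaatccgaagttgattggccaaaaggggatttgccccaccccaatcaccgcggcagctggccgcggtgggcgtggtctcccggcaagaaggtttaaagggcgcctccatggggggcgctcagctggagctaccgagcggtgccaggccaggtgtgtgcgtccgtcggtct
ASNS (chr7:97872359-97872658, minus strand): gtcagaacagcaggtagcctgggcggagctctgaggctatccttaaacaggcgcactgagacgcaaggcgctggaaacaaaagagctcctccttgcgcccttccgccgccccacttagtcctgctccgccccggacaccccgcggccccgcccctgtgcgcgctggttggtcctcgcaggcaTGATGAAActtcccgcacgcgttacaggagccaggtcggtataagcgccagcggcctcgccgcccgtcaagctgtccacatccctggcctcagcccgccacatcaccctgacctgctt
The core began at 38 in SLC3A2, -7 in SLC1A4, -97 in SLC1A5, 8 in SLC7A1, -209 in CHAC1 and -68 in ASNS. Among the 30 members above the floor with a window it was present in 6, which include SLC1A3 and SLC38A1. In the amino acid response list it was present in 3 of 18 genes (16.7%). Over all genes measured on both arrays it was present in 327 of 11465 (2.85%), and over all genes with a window in 4.46%. The 6 carriers had differences from -0.13 to 0.22, and the 3 list genes with the core had -0.22 (ASNS), 0.85 (CHAC1) and 1.02 (ATF3). A match is a run of letters and not a shown binding site, and genes with several start sites had several windows.

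Of the lysosomal group, SLC36A1 and SLC38A7, with differences of 0.01 and 0.00, carry the E-box CACGTG. It is a palindrome bound by MYC and by the MITF and TFE factors of lysosomal genes. No match was found for SLC36A4 or SLC38A9, but a member without a window was not searched. The windows of SLC36A1 and SLC38A7 are shown with the E-box in capitals.
SLC36A1 (chr5:151447353-151447652, plus strand): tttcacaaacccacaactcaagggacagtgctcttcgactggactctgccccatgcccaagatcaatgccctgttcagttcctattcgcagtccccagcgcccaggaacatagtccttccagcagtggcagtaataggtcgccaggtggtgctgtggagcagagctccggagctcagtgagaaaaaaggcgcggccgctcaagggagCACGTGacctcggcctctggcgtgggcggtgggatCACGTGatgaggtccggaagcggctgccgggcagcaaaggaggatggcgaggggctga
SLC38A7 (chr16:58684721-58685020, minus strand): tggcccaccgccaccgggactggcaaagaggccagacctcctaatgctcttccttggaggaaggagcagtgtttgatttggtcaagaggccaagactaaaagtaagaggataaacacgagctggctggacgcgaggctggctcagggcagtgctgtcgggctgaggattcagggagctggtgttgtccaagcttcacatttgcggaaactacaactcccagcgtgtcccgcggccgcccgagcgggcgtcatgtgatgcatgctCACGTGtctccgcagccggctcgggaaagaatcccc
It began at -43 and -8 in SLC36A1 and at 15 in SLC38A7. The E-box was present in 10 of the 30 members above the floor with a window (33.3%). These include SLC1A5, SLC1A7, SLC38A5, SLC43A1, SLC6A16, SLC7A5, SLC7A7 and SLC7A8. The share was 12.3% of genes measured on both arrays and 8.77% of all genes with a window. The holders ranged from SLC1A7 at -0.26 to SLC7A8 at 0.58.

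Genes that sense amino acids upstream of mTORC1 had mostly small differences. Of 35 genes, all above the floor on both arrays, 0 reached 1.5-fold in either direction (3.53% higher and 1.38% lower over all genes). This count lies near those shares and is no result about sensing genes in particular. The median was -0.07, beside -0.03 over all genes, and 8 of the 35 lay above 0, against 42.8% of all genes. Most of the 35 lay in the brightest bin or the bin below it, where the median over all genes was -0.06 in each. Above 0 lay 1231 of 4368 genes in the brightest bin and 1524 of 4367 in the bin below. The low values are therefore no result about sensing genes in particular. The largest difference was that of SESN3, a sestrin, with 234 in R-HL60 and 309 in HL60 (difference -0.41). MTOR differed by -0.06 and the Rag GTPase gene RRAGA by -0.21.

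Enzymes of glutamine, aspartate, branched-chain amino acid and arginine metabolism had a median of -0.09 over 22 measured genes. The median was -0.03 over all genes and -0.06 over all genes of the brightest bin, where most of these enzymes lay. IL4I1, a secreted amino acid oxidase, was the exception, with 421 in R-HL60 and 42.6 in HL60 (9.82-fold higher), or a log2 difference of 2.34 with the offset of 50 units. It was the single gene of the 22 past 2-fold, where 0.786% of all genes were at least 2-fold higher. Its HL60 signal was close to the floor of 30.7, so the size of the fold is uncertain. The other 21 lay between -0.50 for ASS1, argininosuccinate synthase, and 0.10 for ASL. The glutamine synthetase gene GLUL differed by -0.15.

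Carriers of other families had a median of -0.06 over 15 measured genes, beside -0.03 over all genes. SLC15A3, a lysosomal transporter of histidine and small peptides, had 272 in R-HL60 and 168 in HL60 (1.61-fold higher), the single gene of this list past 1.5-fold, where 3.53% of all genes were at least 1.5-fold higher. Among partners of the carriers none of 6 above the floor reached 1.5-fold, a count that lies near the shares over all genes (3.53% higher and 1.38% lower) and says nothing about partners in particular. The largest measured difference there was that of the integrin gene ITGB1, which binds the SLC3A2 protein, with 301 in R-HL60 and 375 in HL60 (difference -0.33, or -0.11 in the mean of its probes). CD44, which stabilises the SLC7A11 protein, had 11960 in R-HL60 and 9654 in HL60 (difference 0.30).

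**Figure D3:**
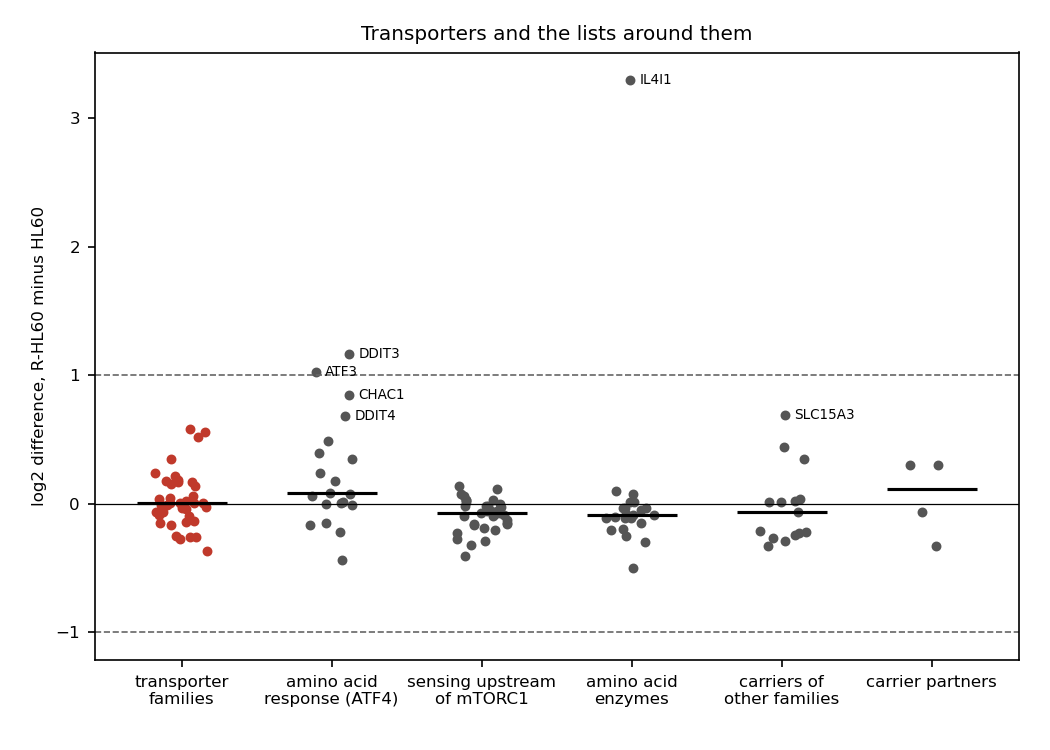
Log2 difference, R-HL60 minus HL60, of each measured gene of the transporter families (red) and of 5 lists around them (grey), with bars at the medians, dashed lines at 2-fold and names for genes past 1.5-fold. The transporter families have no gene past 1.5-fold, and the amino acid response list has 4, from DDIT4 at 0.68 to DDIT3 at 1.17.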

How the data were processed

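Total RNA of 1 sample per line was labelled with Cy3 and read on 1-colour arrays, per the labels' protocols, with Agilent Feature Extraction 10.7.3.1 per the submitters' processing notes. The authors deposited 1 linear intensity per probe and array with a gene name, and a table of normalized intensities. The raw files hold no probe identifiers, background values or detection flags, and how background was treated is not stated in the labels or files used here. The sorted values of the normalized table lay within 1.06% of the mean of both sorted raw arrays.

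Signals were taken to log2 and each array's 75th percentile was subtracted. Older names were updated through a RefSeq table of GRCh38.p14; all 64 member names were current. A gene above the floor on 1 array has only a bound. With 1 array per line no test was run, and the number of arrays limits the precision. Probe-to-probe SDs come from genes with several probes above the floor on both arrays. Data for R-HL60 against HL60 were simulated with 43270 genes. Of the changed genes, 100 of 100 at 2.5-fold and 100 of 100 at 4-fold passed 2-fold, as did 4 of 23106 unchanged ones. The changed genes were drawn from brighter genes only, so recovery at the brightness of SLC7A8 and SLC7A7 was not examined. The simulated noise was the probe-to-probe SD, without the spread between cultures and arrays, so false calls in the real data may be more frequent.

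Members and lists were chosen with earlier results of these data known. Signals are given for members past 1.5-fold and for a fixed set of main carriers, and from each list for genes past 2-fold or else for the gene with the largest difference, with ATF4 and ASNS. Other genes, and both motifs, were chosen after their values were seen. Of the sensing list, 35 of 36 genes were analysed. A few genes included in the counts are not reported by name here. Alternatives were quantile, median and loess scaling, the authors' table, an offset of 50 units, the mean of all probes and floors at the 40th and 60th percentile. Python 3.11.15, numpy 2.4.6, pandas 2.3.3, scipy 1.17.1, statsmodels 0.14.6 and matplotlib 3.10.9 were used.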

Additional observations from a re-analysis of the deposited data

How the results depend on the processing

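No member reached 2-fold in any of the 8 alternatives. The count of members at least 1.5-fold higher in R-HL60 was 2 in place of 0 with the floor at the 40th percentile, where SLC38A8 and SLC6A17 entered with bounds, and 0 in the other 7. The median over members ran from -0.09 with median scaling to 0.06 with loess. Of 317 values of single members under an alternative, 8 moved by over 0.19, the SD between probes. In the mean of all probes these were SLC1A7 at -0.02, SLC38A10 at 0.07, SLC6A10P at 0.32, SLC6A3 at -0.10, SLC6A4 at -0.08 and SLC7A11-AS1 at -0.28, where that mean includes probes below the floor for SLC38A10, SLC6A3, SLC6A4 and SLC7A11-AS1. SLC3A1 moved to -0.33 with the lower floor and SLC6A4 to 0, its bound, with the higher floor. Medians of the 5 lists moved by less than that SD in all 8 alternatives, but that SD exceeds every list median. The amino acid response median went from 0.08 to -0.01 with median scaling. The median of the partners went from 0.12 to 0.03 with median scaling and to 0.25 with the lower floor. No paired analysis was possible because each line has 1 array. Without detection flags, members near the floor have no established signal.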
